A study of Homo sapiens with 20 samples.

Results

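The transcripts described here are 7 noncoding RNAs that carry small nucleolar RNAs (snoRNAs) in their introns: EPB41L4A-AS1, ZFAS1, GAS5, SNHG1, SNHG4, SNHG8 and SNHG12. They were taken by symbol from the annotation of the array, also where it lists a host together with its snoRNAs, as it does for GAS5, SNHG1, SNHG8 and SNHG12. This gave 17 probe sets of 54675 on the array, of which 16 lay above the filter on low signals. GAS5 had 5 probe sets, ZFAS1 4, SNHG12 3, EPB41L4A-AS1 2, and SNHG1, SNHG4 and SNHG8 had 1 each. A further 9 probe sets list SNHG4 together with the protein-coding gene MATR3 and were not counted as members, because their signal cannot be assigned to the host.

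A snoRNA host is transcribed by RNA polymerase II and spliced, and its snoRNAs are trimmed from the excised introns. What remains is a spliced RNA with short or no conserved reading frames. In several hosts, GAS5 among them, ribosomes that translate such a frame terminate early and the RNA is then degraded by nonsense-mediated mRNA decay (NMD), the pathway in which the helicase UPF1 (also called Rent1) recognizes early termination. Since NMD needs translation, drugs that stop ribosomes are known to raise the spliced RNA of such hosts. GAS5, whose name stands for growth arrest-specific, and many other hosts belong to the terminal oligopyrimidine (TOP) class, in which the RNA starts with a C followed by a run of pyrimidines and its translation follows growth conditions.

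RNA came from U2OS, an established human osteosarcoma cell line, hybridized to 3′ expression arrays, 20 arrays in all. The groups are cells made hypoxic (below 0.1% oxygen) for 3 hr, cells given tunicamycin (2.5 ug/ml) for 3 hr, cells given emetine (100 ug/ml) for 3 hr, cells depleted of UPF1 with a hairpin (shRent1), and control cells. Tunicamycin blocks N-linked glycosylation and so causes endoplasmic reticulum stress, and emetine stops translation elongation. In all 5 groups DRB (100 ug/ml), which blocks transcription elongation, was then added, with arrays at the time of addition (0 hr) and after 1.5, 3 and 4.5 hr, 1 for each group and time. No time point has a replicate, no control hairpin is named for the depleted cells, and the labels do not say whether the stress went on during DRB. All 4 comparisons with control share the same 4 control arrays. Signals are normalized between arrays, so levels and slopes are relative to the other transcripts of the array and are not absolute decay rates.

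The depletion was visible in every shRent1 array: the brighter UPF1 probe set read 169.5, 92.4, 94.7 and 89.4 in shRent1 cells at the 4 times, against 354.5, 352.4, 392.2 and 377.0 in control cells, and averaged 29.1% of control. The dimmer UPF1 set averaged 60.95% of control. Its mean level over the DRB times was called lower in shRent1 (a log2 difference of -0.71 ± 0.10, limma adjusted p = 0.000228). Its level at DRB addition was not called (limma adjusted p = 0.0561). Of 9 mesenchymal and bone-lineage markers 8 lay above the filter (COL1A2 did not), as did, of those with a probe set, 3 of 4 epithelial, 1 of 3 immune, 2 of 3 endothelial and 0 of 2 hepatocyte markers. The log2 ratio of the 3′ over the 5′ control probe set of ACTB, a measure of RNA length and labelling, averaged 2.04 ± 0.13 in hypoxia, 0.54 ± 0.11 in tunicamycin, 2.04 ± 0.19 in emetine, 1.24 ± 0.06 in shRent1 and 0.55 ± 0.10 in control (SD over 4 times). For GAPDH the same ratio averaged 0.154 in hypoxia, 0.003 in tunicamycin, 0.111 in emetine, 0.072 in shRent1 and 0.039 in control. The ACTB ratio moved with the groups, by far more than that of GAPDH, and its part in the results below was not tested.

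The starts of the 7 hosts are shown because the terminal pyrimidine run ties a host's RNA to translation. Each line holds 30 bases before and 30 bases from the annotated start, 5′ to 3′ on the strand of the gene, from RefSeq on GRCh38.p14, and capitals mark the longest run of C and T that touches the 5 bases on either side of the start. 
EPB41L4A-AS1, chr5:112160496-112160555, plus strand: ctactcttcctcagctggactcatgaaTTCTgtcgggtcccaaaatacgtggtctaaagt
ZFAS1, chr20:49278612-49278671, plus strand: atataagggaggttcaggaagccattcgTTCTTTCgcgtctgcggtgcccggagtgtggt
GAS5, chr1:173869016-173869075, minus strand: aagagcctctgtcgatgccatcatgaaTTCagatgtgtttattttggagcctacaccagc
SNHG1, chr11:62855856-62855915, minus strand: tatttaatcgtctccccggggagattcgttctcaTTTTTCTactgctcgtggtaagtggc
SNHG4, chr5:139274071-139274130, plus strand: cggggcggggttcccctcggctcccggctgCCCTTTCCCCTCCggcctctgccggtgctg
SNHG8, chr4:118278732-118278791, plus strand: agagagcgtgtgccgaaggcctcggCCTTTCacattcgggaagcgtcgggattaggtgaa
SNHG12, chr1:28581844-28581903, minus strand: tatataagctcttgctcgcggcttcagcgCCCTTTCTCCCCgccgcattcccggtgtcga
By that definition a run of at least 6 pyrimidines lay at or within 5 bases of the start in 5 of the 7 hosts. The exceptions were EPB41L4A-AS1 and GAS5. Such a run was found in 22.2% of the 35116 promoters of the RefSeq table. The SNHG1 run began only at the fifth base, and the SNHG8 run ended at the start itself, with its other bases before it. The count is thus of runs near the start and not of TOP starts. For ZFAS1 and SNHG12 the start shown lies inside the gene as RefSeq bounds it. It is 49278642 for ZFAS1, whose gene begins at 49278178, and 28581873 for SNHG12, whose gene begins at 28582983 on the minus strand. A run is a description of the annotated start shown, and a start used in U2OS cells may differ from it.

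EPB41L4A-AS1, a host named for its position antisense to EPB41L4A, differed most between groups in a graded way, though only in 1 of its 2 probe sets. Its brighter probe set (225698_at) read 1205, 918, 583 and 570 in hypoxia from 0 to 4.5 hr of DRB, 1527, 1447, 1266 and 1432 in tunicamycin, 3741, 3299, 3521 and 3878 in emetine, 3182, 2889, 2608 and 2484 in shRent1, and 844, 365, 257 and 267 in control. Every emetine, shRent1 and tunicamycin array was above every control array, and the hypoxia arrays overlapped with control only through the control array at 0 hr. The order emetine, shRent1, tunicamycin, hypoxia was free of overlap between neighbours down to hypoxia, whose range overlapped with that of control. In the limma fit over all arrays, the mean level over the 4 times was higher than in control by 1.03 ± 0.11 log2 in hypoxia (SE; adjusted p = 6.58e-05), by 1.89 ± 0.11 in tunicamycin (3.74e-07), by 3.24 ± 0.11 in emetine (3.85e-10) and by 2.87 ± 0.11 in shRent1 (2.17e-08), the last 3 being 3.71-fold, 9.45-fold and 7.29-fold.

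GAS5, the host whose decay by NMD is best known, read 4044, 3284, 3035 and 3601 in hypoxia (probe set 224741_x_at, 0 to 4.5 hr), 8329, 9412, 9344 and 10189 in tunicamycin, 10047, 10726, 11775 and 12459 in emetine, 10874, 12183, 12780 and 12549 in shRent1, and 4920, 2357, 2191 and 2123 in control. The signal was high in tunicamycin, emetine and shRent1 at all times, with no array as low as any control array, and the emetine range overlapped with those of tunicamycin and shRent1. The mean level rose by 1.78 ± 0.12 log2 in tunicamycin (limma adjusted p = 8.03e-07), by 2.05 ± 0.12 in emetine (2.26e-08) and by 2.16 ± 0.12 in shRent1 (1.81e-07). In hypoxia it was higher by 0.36 ± 0.12 log2 (adjusted p = 0.0472): hypoxic cells were below control at 0 hr and above it at the 3 later times, and the adjusted p lost the threshold under 20 alternatives, among them no filter, trended moderation and leaving out any 1 hypoxia array (0.0534 to 0.258). The second bright probe set, 224841_x_at, gave 1.82, 2.08 and 2.24 log2 in tunicamycin, emetine and shRent1. These sizes belong to the 2 bright probe sets: with 228238_at, the only GAS5 set without a cross-hybridization suffix above the filter, the differences were 0.23, -0.03 and 0.71.

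SNHG8, a host of an H/ACA snoRNA, behaved much as GAS5 did between groups. It read 2803, 2177, 2030 and 2079 in hypoxia, 5267, 4745, 4337 and 5420 in tunicamycin, 8211, 7505, 7864 and 8105 in emetine, 9887, 8504, 8126 and 7668 in shRent1, and 3420, 1959, 1672 and 1965 in control. All arrays of tunicamycin, emetine and shRent1 were above all control arrays, and hypoxia overlapped with control. The mean level rose by 1.18 ± 0.09 log2 in tunicamycin (limma adjusted p = 2.23e-06), by 1.87 ± 0.09 in emetine (4.41e-09) and by 1.97 ± 0.09 in shRent1 (7.11e-08). In hypoxia the difference was 0.06 ± 0.09 log2 (adjusted p = 0.702).

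SNHG1, which carries a cluster of C/D box snoRNAs, was highest in tunicamycin. Its probe set read 2830, 1677, 1444 and 1403 in hypoxia, 6540, 6201, 6145 and 5847 in tunicamycin, 4656, 4558, 4718 and 5181 in emetine, 5397, 3571, 3273 and 3204 in shRent1, and 3871, 1659, 1266 and 1294 in control. The tunicamycin arrays lay above the arrays of the other groups, and the later shRent1 arrays fell below the control array at 0 hr although each was above control at its own time. The mean level rose by 1.78 ± 0.11 log2 in tunicamycin (limma adjusted p = 5.1e-07), 1.41 ± 0.11 in emetine (3.29e-07) and 1.07 ± 0.11 in shRent1 (2.33e-05), and differed by -0.03 ± 0.11 in hypoxia (0.866).

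**Figure D1:**
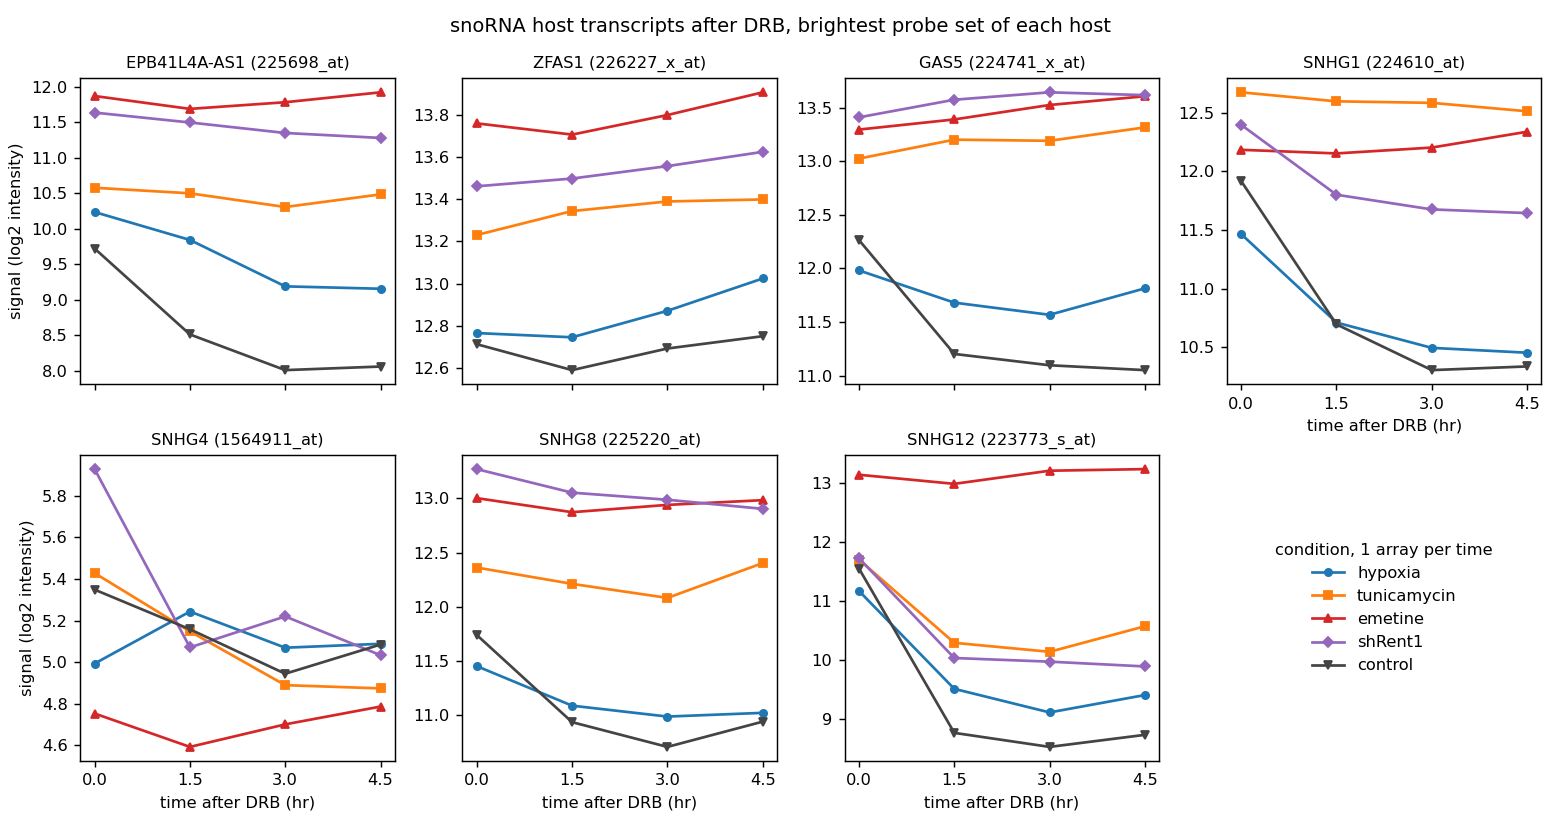
Signal of the brightest probe set of each host (log2 intensity) against time after DRB (hr), 1 array per point and 1 line per group; the vertical scale differs between panels. In EPB41L4A-AS1, GAS5, SNHG1 and SNHG8 the control line drops before 1.5 hr while the emetine line stays level, in ZFAS1 every line is level, and in SNHG12 only the emetine line is level.

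SNHG12, a host mainly of H/ACA snoRNAs, stood apart by its response to emetine. The brightest probe set (223773_s_at) read 2304, 731, 555 and 680 in hypoxia, 3327, 1254, 1129 and 1523 in tunicamycin, 8997, 8088, 9433 and 9614 in emetine, 3381, 1050, 1006 and 951 in shRent1, and 2996, 436, 370 and 426 in control. At 0 hr tunicamycin, shRent1 and control were close, with folds of 1.11 and 1.13 over control, whereas emetine was 3.00-fold over control. At 3 hr emetine was 25.5-fold over control, against 3.05-fold in tunicamycin, 2.72-fold in shRent1 and 1.50-fold in hypoxia. The mean level rose by 1.28 ± 0.22 log2 in tunicamycin (limma adjusted p = 0.00099), by 3.74 ± 0.22 in emetine (1.91e-08) and by 1.01 ± 0.22 in shRent1 (0.00375), and differed by 0.41 ± 0.22 in hypoxia (0.198). With a line per condition and no time factor the calls in tunicamycin and shRent1 were lost (adjusted p = 0.0544 and 0.102). The mean level of a second probe set, 223774_at, in emetine was 5.06 ± 0.27 log2 above control (adjusted p = 9.7e-09). These sizes do not hold for the third set, 228990_at. Its mean differences from control were 0.55 log2 in emetine, -0.46 in tunicamycin, 0.44 in shRent1 and 0.30 in hypoxia.

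ZFAS1, a host of C/D box snoRNAs transcribed next to ZNFX1, had 3 bright probe sets with no loss after DRB and 1 dimmer set, described further on, with an early loss. Its brightest probe set (226227_x_at) read 6969, 6874, 7497 and 8334 in hypoxia, 9611, 10395, 10727 and 10798 in tunicamycin, 13854, 13354, 14238 and 15339 in emetine, 11274, 11564, 12045 and 12619 in shRent1, and 6720, 6173, 6626 and 6898 in control. The tunicamycin, shRent1 and emetine ranges overlapped neither with each other nor with control. The mean level rose by 0.65 ± 0.06 log2 in tunicamycin (limma adjusted p = 6.6e-06), 1.10 ± 0.06 in emetine (7.41e-09) and 0.85 ± 0.06 in shRent1 (7.4e-07), and in hypoxia was higher by 0.16 ± 0.06, short of the threshold (0.053). The slope after DRB was 0.01 ± 0.02 log2 per hr in control (adjusted p = 0.673), and 102.7% of the 0 hr signal was present at 4.5 hr. The other bright ZFAS1 probe sets, 224915_x_at and 226835_s_at, gave 1.17 and 1.30 log2 in emetine and 0.88 and 1.05 log2 in shRent1. In hypoxia their slopes were called rising, at 0.08 ± 0.03 and 0.09 ± 0.03 log2 per hr (adjusted p = 0.0499 and 0.0478; 12.2% of all probe sets), and 226835_s_at was called higher in mean level (0.25 ± 0.06, 0.00847).

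SNHG4, a host in the MATR3 region, had a probe set of its own (1564911_at) with signals near the filter value. It read 31.9, 37.9, 33.6 and 34.0 in hypoxia, 43.1, 35.5, 29.6 and 29.3 in tunicamycin, 27.0, 24.1, 26.0 and 27.6 in emetine, 60.9, 33.6, 37.3 and 32.8 in shRent1, and 40.8, 35.7, 30.8 and 33.9 in control. The emetine arrays were below all others, and the mean level was lower than in control by a log2 difference of -0.43 ± 0.11 (limma adjusted p = 0.0044). The shRent1 array at 0 hr was the highest of the 20. In the other groups the difference from control was -0.04 ± 0.11 in hypoxia, -0.05 ± 0.11 in tunicamycin and 0.18 ± 0.11 in shRent1, none past the threshold.

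Counted over the hosts, the mean level over the DRB times was higher than in control for 6 of 7 in emetine, 6 of 7 in shRent1, 6 of 7 in tunicamycin and 2 of 7 in hypoxia, and lower for 1 of 7, SNHG4, in emetine. Among all 32770 probe sets tested, 26.1%, 19.7%, 12% and 12.8% were called higher in emetine, shRent1, tunicamycin and hypoxia, and 38.2% were called lower in emetine. The hosts' median difference was 1.87 log2 in emetine, 1.07 in shRent1, 1.28 in tunicamycin and 0.16 in hypoxia, beside medians over all probe sets of -0.13, -0.01, -0.03 and -0.02. All 4 arrays lay above all 4 control arrays for 5 hosts in tunicamycin (4.57% of all probe sets), 6 in emetine (18.2%), 4 in shRent1 (9.9%) and 0 in hypoxia (4.25%). All 4 lay below them for SNHG4 in emetine (22.3%). In emetine 64.3% of all probe sets were called in either direction.

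**Figure D2:**
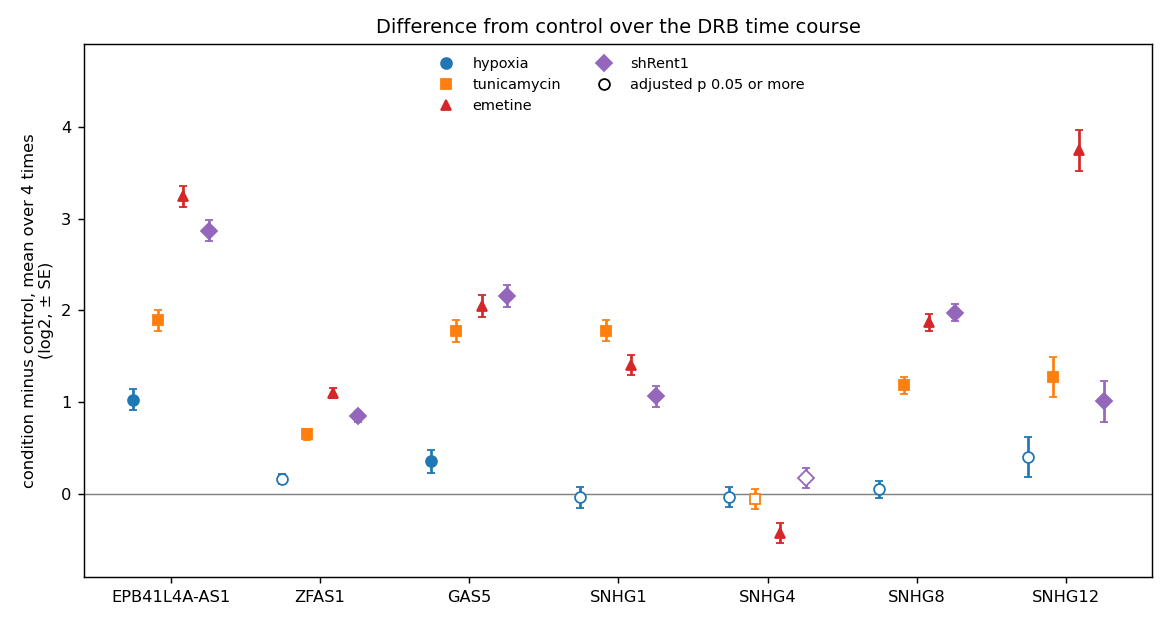
Difference of each group from control in the mean level over the 4 DRB times (log2, limma estimate ± SE) for the brightest probe set of each host; open symbols are those with an adjusted p of 0.05 or more. SNHG12 in emetine (3.74) and EPB41L4A-AS1 in emetine (3.24) and shRent1 (2.87) are the highest points, the hypoxia points lie near 0 except for EPB41L4A-AS1 (1.03), and the only filled point below 0 is SNHG4 in emetine.

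The next question was how the hosts stood when DRB was added. By the fitted line, the level at that time was higher than in control for 5 hosts in tunicamycin (1.07% of all probe sets), 6 in emetine (16.6%), 5 in shRent1 (7.24%) and 1 in hypoxia (2.35%), and lower for SNHG4 in emetine (18.6%). EPB41L4A-AS1 was the host in hypoxia, at 0.79 ± 0.19 log2 (limma adjusted p = 0.0296), a call lost when the hypoxia array of 0, 1.5 or 4.5 hr or the control array of 1.5 hr was left out (adjusted p from 0.0562 to 0.217). EPB41L4A-AS1 stood 2.38 ± 0.19 log2 higher in emetine and 2.22 ± 0.19 in shRent1, and SNHG8 1.47 ± 0.15 and 1.75 ± 0.15. SNHG12 was 2.36 ± 0.37 higher in emetine (adjusted p = 0.000381) and 0.54 ± 0.37 in shRent1 (0.387). The call of SNHG1 in shRent1 (0.65 ± 0.19, adjusted p = 0.048) was lost under 18 alternatives, among them leaving out any 1 shRent1 array or the control array at 1.5, 3 or 4.5 hr, and that of SNHG1 in emetine (0.56 ± 0.19, 0.0362) under 7. The line is fitted over all 4 times, and the measured log2 differences at 0 hr were smaller for these hosts. They were 0.51 in hypoxia, 2.15 in emetine and 1.91 in shRent1 for EPB41L4A-AS1. In emetine and shRent1 they were 1.26 and 1.53 for SNHG8, 1.59 and 0.17 for SNHG12, and 0.27 and 0.48 for SNHG1. In tunicamycin, 1 host passed when its array at 0 hr was left out. The call of SNHG4 in emetine was lost without the emetine or control array at 0 or 1.5 hr (adjusted p from 0.0502 to 0.186).

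Loss after DRB was then compared. In control cells most of the drop came before 1.5 hr: the share of the 0 hr signal present at 1.5 hr was 43.2% for EPB41L4A-AS1, 47.9% for GAS5, 42.9% for SNHG1, 57.3% for SNHG8, 14.6% for SNHG12, 87.6% for SNHG4 and 91.9% for ZFAS1. Over the whole array the median change in that interval was 0.07 log2, and a drop of over 1 log2 was measured for 4.14% of probe sets in control, against 4 of the 7 hosts (EPB41L4A-AS1, GAS5, SNHG1 and SNHG12). In hypoxia, tunicamycin and shRent1 a single host passed that size, SNHG12 in each (2.65%, 4.19% and 3.23% of all probe sets), and in emetine none did (1.75%). At 4.5 hr the share present was 106.9% for SNHG12 in emetine, against 29.5% in hypoxia, 45.8% in tunicamycin, 28.1% in shRent1 and 14.2% in control.

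The fitted slope fell in control for 5 of 7 hosts, while 13.9% of all probe sets fell. The slopes were -0.37 ± 0.06 log2 per hr for EPB41L4A-AS1 (limma adjusted p = 0.00108), -0.25 ± 0.05 for GAS5 (0.00575), -0.34 ± 0.07 for SNHG1 (0.00303), -0.18 ± 0.05 for SNHG8 (0.0337) and -0.58 ± 0.19 for SNHG12 (0.0374). In hypoxia 2 hosts fell (11.3% of all probe sets), EPB41L4A-AS1 at -0.26 ± 0.06 and SNHG1 at -0.22 ± 0.07 (adjusted p = 0.0101 and 0.0343), and without the hypoxia array at 0 hr neither passed (0.244 and 0.72). Without the hypoxia array at 4.5 hr 0 hosts passed, and without the one at 3 hr 1 did. In tunicamycin and in emetine 0 of 7 hosts passed the limma test of slope, with 1 and 0 hosts at an unadjusted p under 0.05 (9.83% and 1.6% of all probe sets fell). In shRent1 the host that fell was SNHG4, at -0.17 ± 0.05 (adjusted p = 0.0284, with 13.3% of all probe sets), and without its array at 0 hr the slope was -0.01. Without the shRent1 array at 4.5 hr 0 hosts passed. The control slopes lean on the array at 0 hr, since most of the drop came before 1.5 hr, with smaller differences after it (a log2 change of -0.45 from 1.5 to 4.5 hr for EPB41L4A-AS1): without the control array at 0 hr, 0 hosts fell, and the slope of SNHG8 was 0.00 log2 per hr (adjusted p = 0.994).

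**Figure D3:**
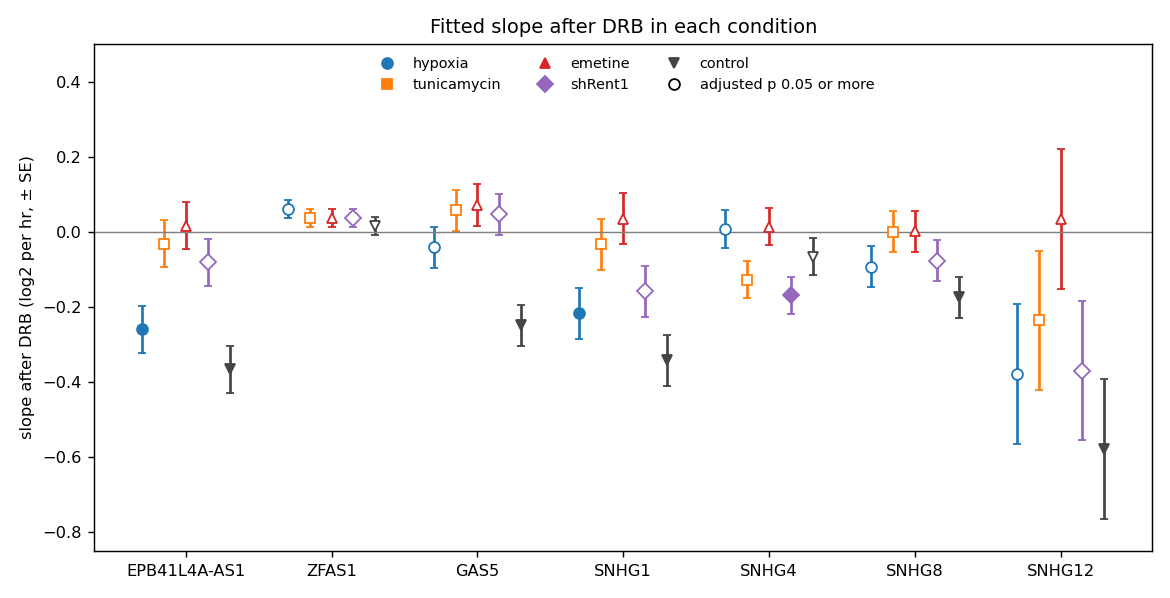
Fitted slope after DRB (log2 per hr ± SE, a line per group) for the brightest probe set of each host in the 5 groups; open symbols are those with an adjusted p of 0.05 or more. In control 5 hosts lie below 0 and are filled, in emetine all 7 points lie between 0.00 and 0.07, and SNHG12 has the widest errors.

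The difference in slope itself was tested against control. It was positive, a slower relative loss, for EPB41L4A-AS1, GAS5 and SNHG1 in tunicamycin (0.33 ± 0.07, 0.31 ± 0.07 and 0.31 ± 0.07 log2 per hr; limma adjusted p = 0.0225, 0.0453 and 0.0302; 2.45% of all probe sets). In emetine it was positive for these 3 hosts and SNHG12 (0.38 ± 0.07, 0.32 ± 0.07, 0.38 ± 0.07 and 0.61 ± 0.13; adjusted p = 0.0032, 0.0142, 0.00317 and 0.00978; 8.31% of all probe sets). In hypoxia 0 hosts passed the limma test and 1 had an unadjusted p under 0.05, and 0% of all probe sets were called. In shRent1 0 hosts passed and 3 had an unadjusted p under 0.05, with 0.00305% of all probe sets called higher: EPB41L4A-AS1 differed by 0.28 ± 0.07 and GAS5 by 0.30 ± 0.07 (adjusted p = 0.417 and 0.427), values close to those in tunicamycin. These slope differences rest on the arrays at 0 hr: without the one of control, 0 hosts passed in tunicamycin and 0 in emetine. The call of GAS5 in tunicamycin was lost under 21 alternatives, and its sign turned in 2 more, the median of its probe sets (-0.12) and leaving out _x_at and _s_at sets (-0.02).

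Emetine and UPF1 depletion were set against each other, since they act on NMD by different routes. The mean level was higher in emetine for 4 hosts (22.6% of all probe sets) and lower for 1 (31.7%). SNHG12 was 2.73 ± 0.22 log2 higher in emetine than in shRent1 (limma adjusted p = 4.2e-07), a 6.64-fold difference. EPB41L4A-AS1 (0.38 ± 0.11), SNHG1 (0.34 ± 0.11) and ZFAS1 (0.26 ± 0.06) were higher by less (adjusted p = 0.0144, 0.0219 and 0.00219), and SNHG4 was lower by a difference of -0.60 ± 0.11 (0.000405). The calls of EPB41L4A-AS1 and SNHG1 were lost on leaving out the emetine array at 3 hr or the shRent1 array at 0 or 4.5 hr, and that of SNHG1 also without either array at 1.5 hr. With the median of its probe sets the EPB41L4A-AS1 difference turned sign (-0.16). For GAS5 and SNHG8 the differences were -0.11 ± 0.12 and -0.10 ± 0.09 (adjusted p = 0.49 and 0.369). No host passed the limma test for a difference in slope between emetine and shRent1, with 3 hosts at an unadjusted p under 0.05 (7.73% of all probe sets were called higher).

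Within EPB41L4A-AS1, ZFAS1, GAS5 and SNHG12 the probe sets fell into unlike courses, a grouping seen in the values and given with no test of its own. ZFAS1 229899_s_at read 678, 29.8, 21.5 and 17.2 in hypoxia, 972, 24.1, 19.9 and 18.6 in tunicamycin, 243, 21.6, 18.1 and 15.02 in emetine, 940, 30.9, 19.1 and 20.7 in shRent1, and 794, 18.2, 19.3 and 21.5 in control. At 1.5 hr it had 8.87% or less of its 0 hr signal in every group, emetine included, while the other ZFAS1 probe sets kept at least 85.6%. Where the probes of each set lie along the gene was not analysed here.

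GAS5 showed the same contrast. Probe set 227517_s_at read 4402, 761, 464 and 488 in hypoxia, 5917, 346, 270 and 322 in tunicamycin, 1901, 529, 320 and 347 in emetine, 5427, 562, 454 and 442 in shRent1, and 5138, 396, 331 and 367 in control. In control 7.71% of its own 0 hr signal was present at 1.5 hr, where 224741_x_at had 47.9% of its own. In tunicamycin 5.84% of its 0 hr signal was present at 1.5 hr, where 224741_x_at had 113.0%. A further probe set, 228238_at, had between 21.4% (tunicamycin) and 51.9% (emetine) of its 0 hr signal at 1.5 hr.

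SNHG12 228990_at read 721, 186, 128 and 156 in hypoxia, 831, 69.8, 64.1 and 87.0 in tunicamycin, 788, 363, 168 and 111 in emetine, 1038, 186, 139 and 145 in shRent1, and 1000, 112, 87.8 and 118 in control. In emetine its signal was lower at each later time, in the same arrays in which 223773_s_at stayed between 8088 and 9614. EPB41L4A-AS1 228259_s_at had 69.4% of its 0 hr signal at 4.5 hr in emetine and 18.7% in control. It read 120 in emetine and 243 in control at 0 hr, the opposite order to 225698_at. A drop of over 3 log2 before 1.5 hr was measured in control for 4 of the 16 member probe sets (ZFAS1 229899_s_at, GAS5 227517_s_at and SNHG12 223774_at and 228990_at) and for 0.427% of all.

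Of the probe sets just described, 5 read lower in emetine than in control at 0 hr. Emetine over control was 0.31-fold for ZFAS1 229899_s_at, 0.37-fold for GAS5 227517_s_at, 0.64-fold for GAS5 228238_at, 0.50-fold for EPB41L4A-AS1 228259_s_at and 0.79-fold for SNHG12 228990_at. SNHG12 223774_at, which also dropped by over 3 log2 in control, was 4.63-fold over control in emetine at 0 hr. By the fitted line the level at DRB addition was lower in emetine for ZFAS1 229899_s_at (-1.003 ± 0.363 log2, limma adjusted p = 0.0485). Over all probe sets 18.6% were called lower there, and the median difference was -0.09 log2. The mean level of these 5 sets over the DRB times passed the test against control for EPB41L4A-AS1 228259_s_at in shRent1 (1.24 ± 0.21, adjusted p = 0.000882) and emetine (0.53 ± 0.21, 0.0454) and for GAS5 228238_at in shRent1 (0.71 ± 0.15, 0.00334). None of the 5 passed in tunicamycin or hypoxia. Among all probe sets tested, 19.7% were called higher in mean level in shRent1 and 26.1% in emetine. One of the sets listed for SNHG4 and MATR3, 1564906_at, had the same course, with 34.7 in emetine against 213.6 in control at 0 hr and 12.5% of the 0 hr signal left at 4.5 hr in control.

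**Figure D4:**
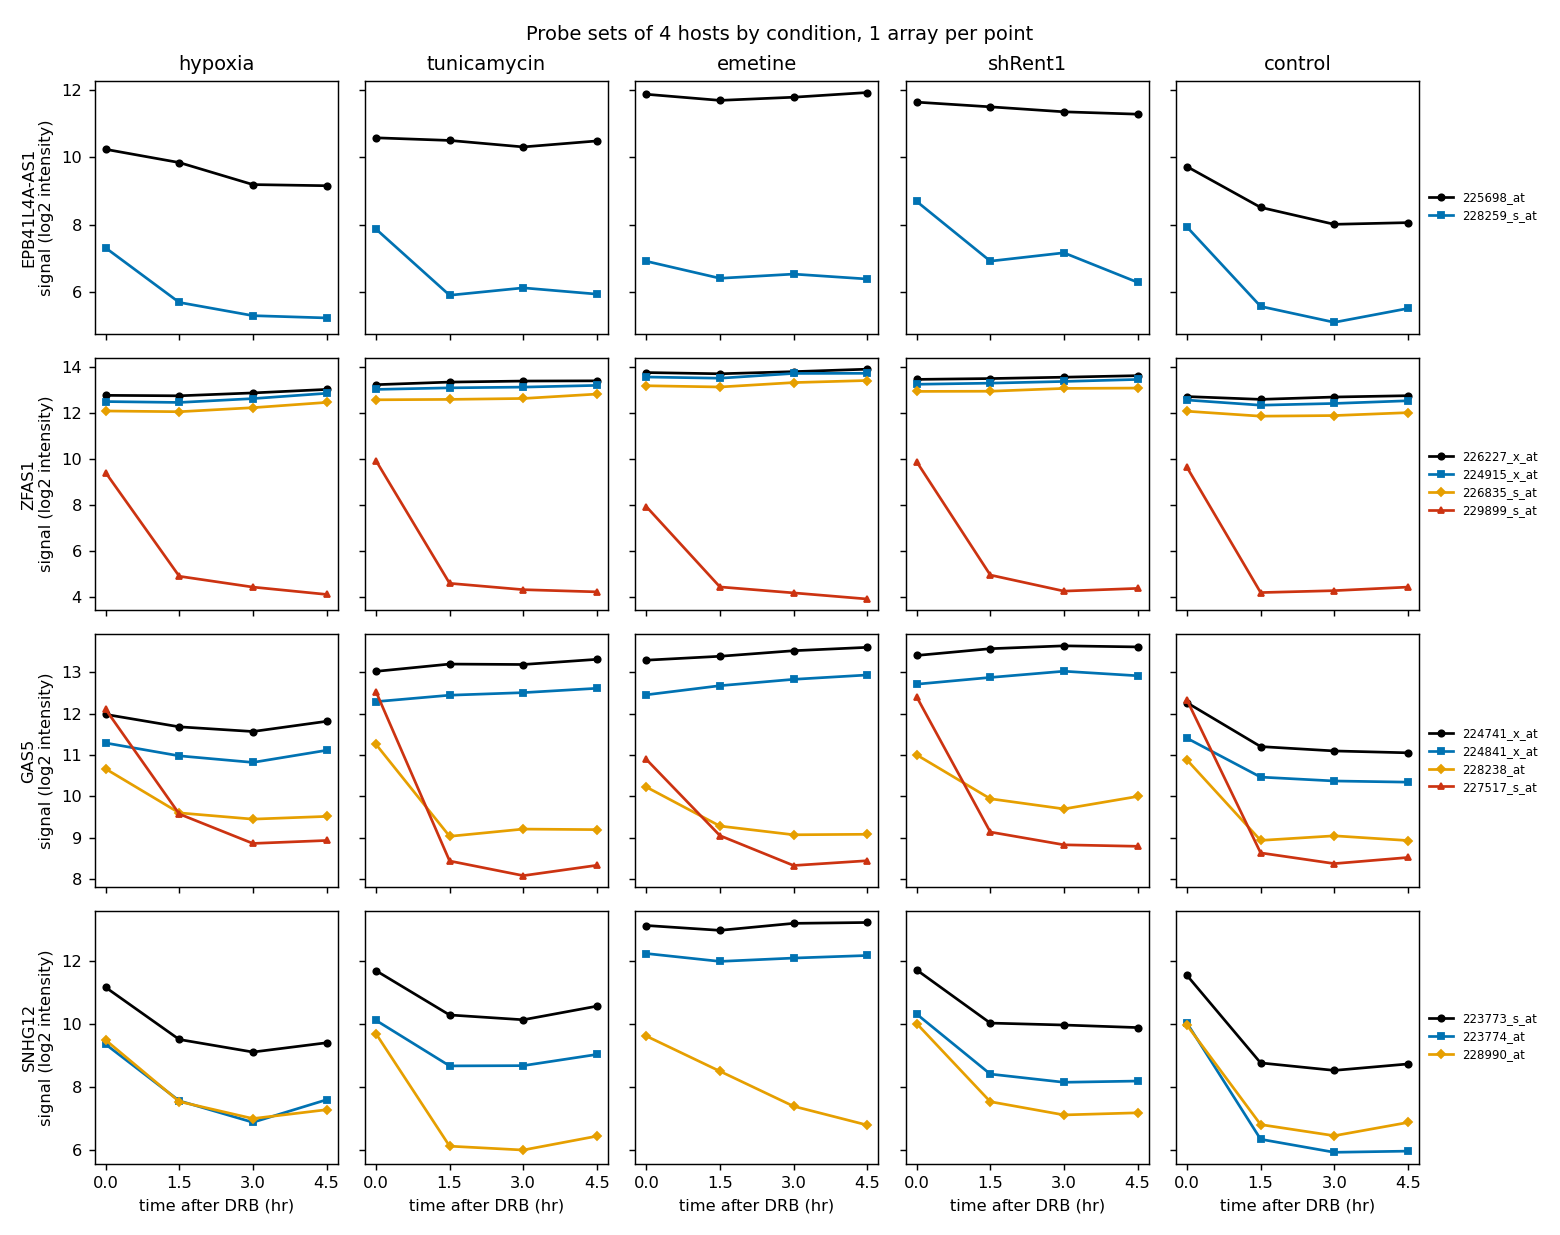
Signal of every tested probe set (log2 intensity) of EPB41L4A-AS1, ZFAS1, GAS5 and SNHG12 against time after DRB (hr), with a column per group and 1 array per point. In ZFAS1 3 lines stay level and 229899_s_at drops before 1.5 hr in all 5 groups, and in the emetine column of SNHG12 223773_s_at and 223774_at are level while 228990_at declines.

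Over the 20 arrays the hosts varied together, apart from SNHG4. Pearson's r between pairs is given as a description over arrays that share groups and times. It was 0.935 for EPB41L4A-AS1 with GAS5, 0.951 for EPB41L4A-AS1 with SNHG8 and 0.963 for GAS5 with SNHG8. Pairs of SNHG12 with hosts other than SNHG4 were looser, from 0.658 (GAS5) to 0.789 (EPB41L4A-AS1), and SNHG1 with ZFAS1 gave 0.71. For SNHG4 with the others r lay between -0.334 and -0.019. Likeness to the mean of the hosts was ranked only among probe sets annotated to 1 symbol. The genes most like it there were BRAP, a ubiquitin ligase that binds BRCA1 (r = 0.976), BTN2A1, a butyrophilin (0.974), ZC3H7A, a zinc finger protein (0.971), and the hosts SNHG17 (0.968) and SNHG32 (0.967). Hosts listed together with their snoRNAs, such as SNHG5, SNHG7 and SNHG15, were not in that ranking.

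Other noncoding hosts were split. Of 21 listed, 15 were tested, and the mean level was higher for 1 and lower for 0 in hypoxia, higher for 8 and lower for 2 in tunicamycin, 8 and 5 in emetine, and 9 and 1 in shRent1. Over all probe sets the shares called higher and lower were 12.8% and 14.1% in hypoxia, 12% and 13.1% in tunicamycin, 26.1% and 38.2% in emetine and 19.7% and 14.4% in shRent1, so 5 of 15 lower in emetine is near the share of all. The group that was higher included SNHG32 (1.38 ± 0.10 log2 in tunicamycin, 2.40 ± 0.10 in emetine and 1.76 ± 0.10 in shRent1), SNHG7 (1.68, 1.77 and 2.88), SNHG17 (1.49, 2.06 and 1.89), SNHG15 (1.24, 1.78 and 2.12) and SNHG5 (1.05, 1.99 and 2.001). DANCR was lower in tunicamycin, emetine and shRent1 (-0.20 ± 0.06, -0.32 ± 0.06 and -0.18 ± 0.06; limma adjusted p = 0.0205, 0.000327 and 0.0301). SNHG16 differed by -0.22 ± 0.06 in emetine (0.0104). SNHG29 was brighter at 4.5 hr than at 0 hr in every group, with 226.7% to 342.5% of its 0 hr signal in the 4 treated or depleted groups and 233.9% in control, and its slope was called rising in all 5 groups (0.32 ± 0.08 log2 per hr in hypoxia, 0.38 in tunicamycin, 0.39 in emetine, 0.26 in shRent1 and 0.25 in control; limma adjusted p from 0.00753 to 0.0408).

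**Figure D5:**
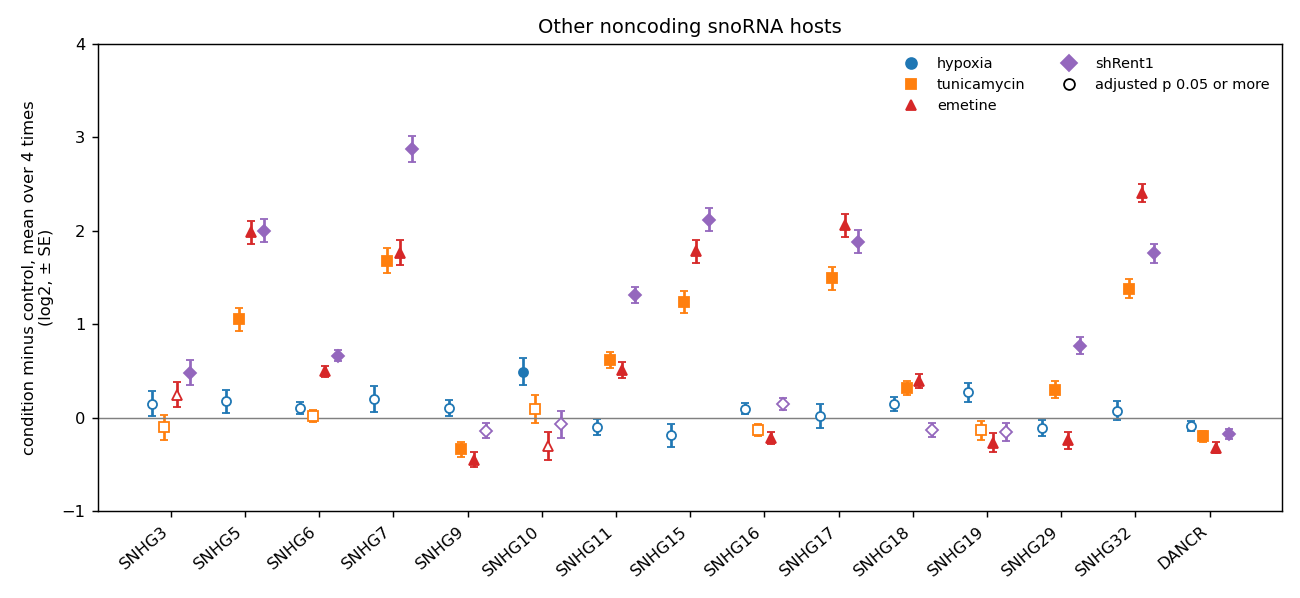
Difference of each group from control in the mean level over the 4 DRB times (log2, limma estimate ± SE) for 15 other noncoding snoRNA hosts; open symbols are those with an adjusted p of 0.05 or more. SNHG5, SNHG7, SNHG15, SNHG17 and SNHG32 lie above 1 in tunicamycin, emetine and shRent1, DANCR lies below 0 in all 4 groups, and 1 hypoxia point, SNHG10, is filled.

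Hosts that also encode a protein were counted as a pair of lists, to be read against the same shares of all probe sets. Of 21 ribosomal protein hosts tested, the mean level was higher for 1 and lower for 1 in tunicamycin, 1 and 1 in emetine, 1 and 0 in shRent1 and 2 and 0 in hypoxia. RPL13A, a large-subunit protein whose introns hold C/D box snoRNAs, was the member higher in all 4 groups, with hypoxia at 0.29 ± 0.06 log2, tunicamycin at 0.43 ± 0.06, emetine at 0.44 ± 0.06 and shRent1 at 0.67 ± 0.06 (limma adjusted p from 5.76e-06 to 0.00331). Of 21 other protein-coding hosts, 4 were higher and 3 lower in tunicamycin, 8 and 6 in emetine, 4 and 1 in shRent1 and 1 and 5 in hypoxia. In tunicamycin 12% of all probe sets were called higher and 13.1% lower, in emetine 26.1% and 38.2%. In shRent1 the shares were 19.7% and 14.4%, and in hypoxia 12.8% and 14.1%. WDR43, a nucleolar factor of ribosome assembly, was higher by 0.88, 0.95 and 0.53 log2 in tunicamycin, emetine and shRent1, EIF5, an initiation factor, by 0.59, 0.53 and 0.64, and HSPA8, the constitutive HSP70, was lower in tunicamycin by a difference of -1.25 ± 0.07.

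Proteins that bind or assemble snoRNAs were tested as a list of 15. In hypoxia 1 was higher and 4 were lower, among them SNU13, a core C/D box protein (-0.72 ± 0.07), and RUVBL1, an assembly ATPase (-0.65 ± 0.07). In tunicamycin 6 were higher and 1 was lower, in emetine 6 and 6, with NUFIP1, an assembly factor, at 1.45 ± 0.10 and RUVBL1 at -0.85 ± 0.07, and in shRent1 4 and 1. These counts, and those of the NMD factors, are to be read against the shares of all probe sets called higher and lower. The shares were 12.8% and 14.1% in hypoxia and 12% and 13.1% in tunicamycin. In emetine they were 26.1% and 38.2%, and in shRent1 19.7% and 14.4%. The 6 of 15 lower in emetine is near the 38.2% there. Of 9 NMD factors tested, 1 was higher and 1 lower in hypoxia, near the shares of all probe sets, and 2 and 0 in tunicamycin. In emetine 6 were higher and 1 was lower. In shRent1 5 were higher and 2 lower, and UPF1 was 1 of the lower members there (-1.78 ± 0.10). SMG8, a regulator of the kinase SMG1, was 2.93 ± 0.20 log2 higher in emetine, and SMG9, its partner, 0.67 ± 0.09 higher in tunicamycin and 1.03 ± 0.09 in shRent1.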

How the data were processed

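The deposited values are array intensities on a linear scale, background-corrected, normalized and summarised per probe set by RMA per the submitters' processing notes, with no version given. RMA quantile-normalizes arrays to a like distribution, so a global change in RNA is not measured. Intensities were taken to log2 and fitted with limma 3.58.1 in R 4.3.3 over all 20 arrays, with DRB time as a factor, condition, and condition by linear time (8 residual degrees of freedom); slopes within a condition came from a line per condition. Probe sets with a mean log2 signal above the 40th percentile (4.70) were tested (32770; 62 control probe sets left out), with Benjamini-Hochberg adjustment over all of them and a threshold of 0.05. With 1 array per condition and time, and no label saying that arrays are separate cultures, p-values measure the scatter about the fitted courses, which may be technical, and condition cannot be told apart from culture or array batch. Arrays had median signals of 37.3 to 40.4, and their number limits the precision. Of 54675 probe sets, 41097 had 1 symbol, 1801 several and 11777 none. The brightest probe set stands for a host. The members and gene lists were chosen with earlier results of these data known. Named genes are all members, UPF1, and at most 3 members of each other list with the largest statistic per contrast. Also named are the 5 genes most correlated with the hosts' mean, among probe sets of 1 symbol. DANCR, SNHG16 and SNHG29, and values of listed genes in further groups, were chosen after their values were seen. The fit was tested on simulated data. Alternatives covered the filter, scaling, moderation, offset, probe set choice, time model and leaving out each array.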

Additional observations from a re-analysis of the deposited data

Results flagged for a closer look

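Slope differences from control are the results in which a group's course after DRB differed by a test of the difference itself. In tunicamycin they were 0.3344 log2 per hr for EPB41L4A-AS1, 0.307 for GAS5 and 0.309 for SNHG1. In emetine they were 0.3826 for EPB41L4A-AS1, 0.3206 for GAS5, 0.3763 for SNHG1 and 0.6123 for SNHG12. All 7 lost the threshold without the control array at 0 hr, and the cause was not tested.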

How the results depend on the processing

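Host counts past the test held within 1.5 times except as follows. The hypoxia level at DRB addition (1 host) gave 0 with the median of a host's probe sets and with a line per condition, and the hypoxia mean level (2) gave 1 with no filter, with ribosomal protein centring, without _x_at and _s_at sets and with a line per condition. The tunicamycin level (5) gave 3 with the median, 3 without _x_at and _s_at sets and 2 with a line per condition. Its slope difference (3) gave 1 with quantile normalization, 1 with the median and 0 with a line per condition. The shRent1 level (5) gave 3 without _x_at and _s_at sets. Only 6 hosts were tested without such sets, since ZFAS1 has no other kind, and other sets stood for GAS5 and SNHG12. The tunicamycin slope (0) gave 1 with ribosomal protein centring. The shRent1 slope (1) gave 0 with a filter at the 60th percentile, which left its host, SNHG4, untested. A step after DRB, chosen after seeing the data, gave 1 for the emetine against shRent1 slope difference, 1 for the tunicamycin slope and 3 for the shRent1 slope. Leaving out 1 array at a time gave 0 to 1 hosts for the hypoxia level, 1 to 3 for its mean level and 0 to 0 for its slope difference. It gave 1 to 5, 6 to 6 and 0 to 3 in tunicamycin, 5 to 7, 7 to 7 and 0 to 5 in emetine, and 4 to 5, 6 to 7 and 0 to 0 in shRent1. For emetine against shRent1 it gave 3 to 5 (mean level) and 0 to 2 (slope). Within-group slopes gave 0 to 2 in hypoxia, 0 to 1 in tunicamycin, 0 to 0 in emetine, 0 to 2 in shRent1 and 0 to 5 in control. With the median, the sign turned for the GAS5 tunicamycin slope difference (-0.1202), the GAS5 emetine level (-0.2476) and EPB41L4A-AS1 in emetine against shRent1 (-0.1648). Without _x_at and _s_at sets it turned for the GAS5 tunicamycin slope difference (-0.0186), emetine level (-0.3468) and emetine mean level (-0.0327). The SNHG8 control slope ran from -0.3442 to 0.0016 on leaving out control arrays. Over all probe sets, counts also moved by more than 1.5 times. With a line per condition they were 302 in place of 521 for the tunicamycin level, 493 in place of 897 for its slope difference, 2139 in place of 3236 for the emetine slope difference and 1887 in place of 2905 for that of emetine against shRent1. With trended, robust moderation they were 3338 in place of 2213 for the hypoxia level, 996 in place of 521 for the tunicamycin level, 61 in place of 0 for the hypoxia slope difference and 31 in place of 3 for the shRent1 slope difference. The step gave 12 for the tunicamycin and 158 for the emetine slope difference. A filter at the 60th percentile gave 345 in place of 578 emetine slopes. Leaving out _x_at and _s_at sets, or keeping 1 set per gene, tests fewer probe sets and lowered most counts, to 13009 and 9962 in place of 21085 for the emetine mean level. Leaving out 1 array gave 172 to 2324 for the hypoxia level, 91 to 539 for the tunicamycin level, 70 to 884 for its slope difference, 1211 to 3275 for the emetine slope difference, 316 to 3335 for the shRent1 level and 2003 to 9392 for the control slope. In these results the cause was not tested. No paired analysis was possible because replicate numbers stand for DRB times, which the model already holds as a factor.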
